A study of Mus musculus with 4 samples.

Results

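The acellular matrices of the inner ear are built largely from glycoproteins that the epithelium secretes, and 8 genes for such proteins were followed here in embryonic cochlear ducts from which *Tbx2* was to be deleted. They are *Tecta* and *Tectb* for the tectorins, *Otog* and *Otogl* for otogelin and otogelin-like, *Otoa* for otoancorin, *Otol1* for otolin, *Ceacam16*, and *Umodl1* for an uromodulin-like protein. They were picked by symbol out of 29924 gene names on the array, each symbol was found, and together they had 10 probes of 60 bases in 4 spots each, or 40 spots per array. The study hybridised 4 Agilent arrays with 2 dyes each, every one holding a pool of *Sox2-Tbx2LOF* ducts beside a pool of control ducts from embryos at E14.5. The mutants carried Sox2(creERT2), a tamoxifen-dependent Cre recombinase at *Sox2*, with Tbx2(fl/fl). The controls are labelled Tbx2(fl/n.d.), so that their second allele was not determined, and the methods describe them as lacking Cre. Both groups were of the NMRI strain, and their dams had received 4 mg of tamoxifen at E12.5. Recombination could occur only in cells that expressed *Sox2* at that time, and the pools mixed several embryos of 1 sex. Arrays 1 and 2 held female and arrays 3 and 4 male pools, and the mutant was in Cy5 on arrays 1 and 3 and in Cy3 on arrays 2 and 4.

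The tectorial membrane is a gel over the Organ of Corti that touches the stereocilia of the outer hair cells. It consists of collagen fibrils in a striated sheet of alpha- and beta-tectorin, with CEACAM16 as a further component of that sheet, and it is laid down from before birth by supporting cells and by the cells medial to them. Tectorins, like uromodulin, assemble through zona pellucida domains. Otogelin and otogelin-like are mucin-related proteins of the acellular membranes, otoancorin anchors the membrane to the surface of the epithelium, and otolin is a short collagen of otoconia. Defects in several of these genes cause hereditary deafness.

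The measurements read short stretches of each transcript, and they are shown for the genes whose values differed most between the groups, with positions in mouse build mm9 as the array files give them. Both *Tectb* probes and both *Otoa* probes lie on the forward strand, and so does the probe of *Umodl1*. The first 30 bases of the 60 are printed in lower case, as the files write them. Whether a probe lies in coding or untranslated sequence was not analysed here.

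*Tectb*, brighter probe, chr19:55270559-55270618: tctagttcatgctccaatcagtttggaacc
*Tectb*, dimmer probe, chr19:55266006-55266065: cccaaactttccaaggtttggttacactgt
*Otoa*, brighter probe, chr7:128306914-128306973: gatgttgtggtgggtatcacattgcttgga
*Otoa*, dimmer probe, chr7:128291203-128291262: tgctttggctctcagcgagagtgagttgga
*Umodl1*, chr17:31147589-31147648: taagaatgacaaccgggagtctgtgtggct

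The remaining genes had 1 probe each. These were *Tecta* at chr9:42138356-42139013 on the reverse strand, *Otog* at chr7:53566329-53566388 on the forward strand, *Otogl* at chr10:107199456-107199515 on the reverse strand, *Otol1* at chr3:69832567-69832626 on the forward strand and *Ceacam16* at chr7:20437446-20437505 on the reverse strand. The *Tecta* probe of 60 bases spans 658 bases of the genome. The brighter *Otoa* probe is assigned by the files to a predicted transcript that is not among the transcripts listed for *Otoa* in the RefSeq table of build GRCm38.p6, whereas the dimmer one is assigned to a curated transcript in that table.

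The 4 arrays were of similar quality. The median spot of an array had an intensity of 262.9 to 292.0 for Cy3 and of 496.5 to 563.4 for Cy5. Depending on array and dye, 69.2% to 72.0% of gene spots were well above background, and saturation occurred in 0 spots. The *Tbx2* probe had log2 ratios of mutant over control of -0.25, -0.053, -0.13 and -0.031 on arrays 1 to 4 (-0.12 ± 0.098 SD, n = 4, limma adjusted p = 0.124), and whether it lies in the deleted part was not determined. *Esr1*, the oestrogen receptor gene from which the ERT2 part of CreERT2 derives, was above background in 4 of 4 mutant pools and in 0 of 4 control pools. By means it was at least 4.24-fold higher in the mutants, a bound without sampling error.

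Of the 8 genes, 7 were tested, and 6 of these were above background in both groups. Among the 6, 2 were higher and 2 were lower in the mutants at an adjusted p below 0.05, and 2 did not pass. *Tectb* rose and *Otoa* fell, and these also reached the fold of 1.5 needed for a gene to be called. *Tecta* fell and *Otogl* rose by smaller amounts, and *Otog* and *Otol1* lay near 0. The remaining tested gene, *Umodl1*, was above background in the mutant pools alone. It passed the filter only through them and had to differ, so its call is given as a description and is left out of every count over the 6 genes. The test was limma's moderated test on log2 ratios with a term for the dye, adjusted by the Benjamini-Hochberg method over 21042 genes. Of the 6 genes 1 was called higher and 1 lower, and in the same test 0.133% of all genes were called higher and 0.309% were called lower, and 2.26% and 2.92% passed the adjusted p in the respective direction at any fold. 2 of the 6 genes were higher on 4 of 4 arrays, as were 8.85% of all tested genes, and 2 were lower on 4 of 4 arrays, as were 9.31%. The median log2 ratio was -0.0026 over the 6 genes and 0.0024 over all tested genes. In bulk pools fewer cells of a type and less RNA per cell cannot be told apart.

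Gene-specific dye effects are large on such arrays, so levels were compared between pools of the same dye, of which each group had 2. Levels are normalized log2 signals and are comparable between pools for 1 probe, not between probes. In 1 of the 6 genes, *Tectb*, the mutant pools lay above the control pools without overlap in both dyes, against 3.73% of all tested genes, and in 2 they lay below, against 4.61%.

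**Figure D1:**
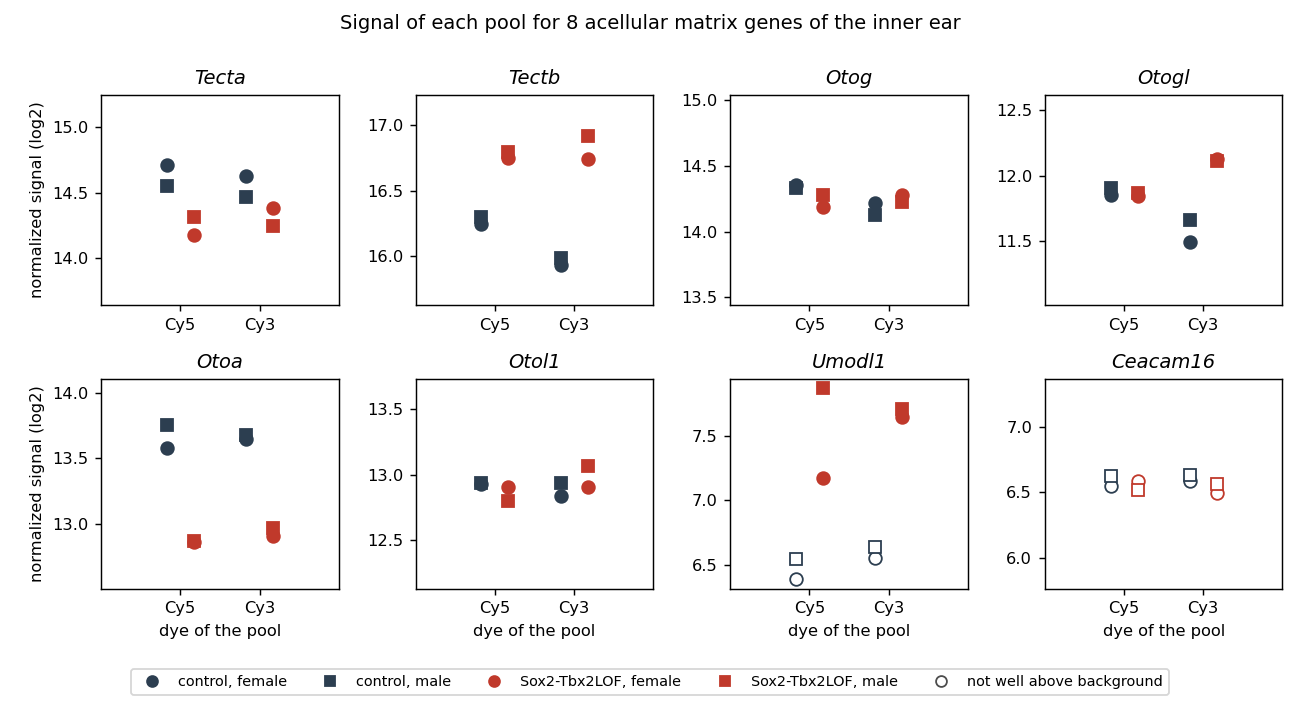
Normalized log2 signal of the probe that stands for each gene in the 8 pools, by the dye of the pool (x axis), for control (dark) and *Sox2-Tbx2LOF* (red) pools of female (circles) and male (squares) embryos, with open symbols where the probe was not well above background and an axis of its own for each gene. The groups are apart in the same direction in both dyes for *Tecta*, *Tectb*, *Otoa* and *Umodl1*, and *Umodl1* has open symbols in the control pools and filled ones in the mutant pools.

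*Tectb*, which encodes the beta-tectorin of the striated sheet, rose in the mutants. In Cy5 the mutant pools had log2 levels of 16.75 (female) and 16.79 (male) and the control pools 16.25 and 16.30. In Cy3 the mutant pools had 16.74 and 16.92 and the control pools 15.94 and 15.99. All 4 mutant pools were thus above all 4 control pools. The log2 ratios within arrays 1 to 4 were 0.81, 0.50, 0.80 and 0.62, a mean of 0.68 ± 0.15 (SD, n = 4) with a standard error of 0.037 in the fit. This is a 1.60-fold rise with a 95% confidence interval of 1.51 to 1.70 (limma adjusted p = 9.23e-05). The interval thus begins just above the fold required for a call. The dimmer probe had ratios of 0.93, 0.42, 0.93 and 0.77, a mean of 0.76 ± 0.24 (SD, n = 4, adjusted p = 0.000395 over all tested probes). The brighter minus the dimmer probe was -0.079 ± 0.10 (SD, n = 4), so the probes differed by less than the spread between arrays. In both probes the arrays with the mutant in Cy5 gave higher ratios than those with the mutant in Cy3.

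*Tecta*, the partner of *Tectb* in the same sheet, was lower in the mutants. In Cy5 the mutant pools had log2 levels of 14.18 and 14.31 and the control pools 14.71 and 14.55, for female and male pools respectively. In Cy3 the mutant pools had 14.38 and 14.25 and the control pools 14.63 and 14.47. The groups did not overlap in either dye. The ratios within arrays were -0.45, -0.33, -0.16 and -0.30, a mean of -0.31 ± 0.12 (SD, n = 4), or a 1.24-fold lower level (limma adjusted p = 0.0146), and the 95% interval of the log2 ratio ran from -0.43 to -0.19. The gene was not called, and its adjusted p was 0.0609 without array 1 and 0.0635 without the dye term.

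The 2 tectorin genes therefore differed in direction within every array. The log2 ratio of *Tectb* minus that of *Tecta* was 1.26, 0.82, 0.96 and 0.92 on arrays 1 to 4, with a mean of 0.99 ± 0.19 (SD, n = 4). This is a difference between 2 ratios, and it says nothing of the amounts of the 2 transcripts.

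**Figure D2:**
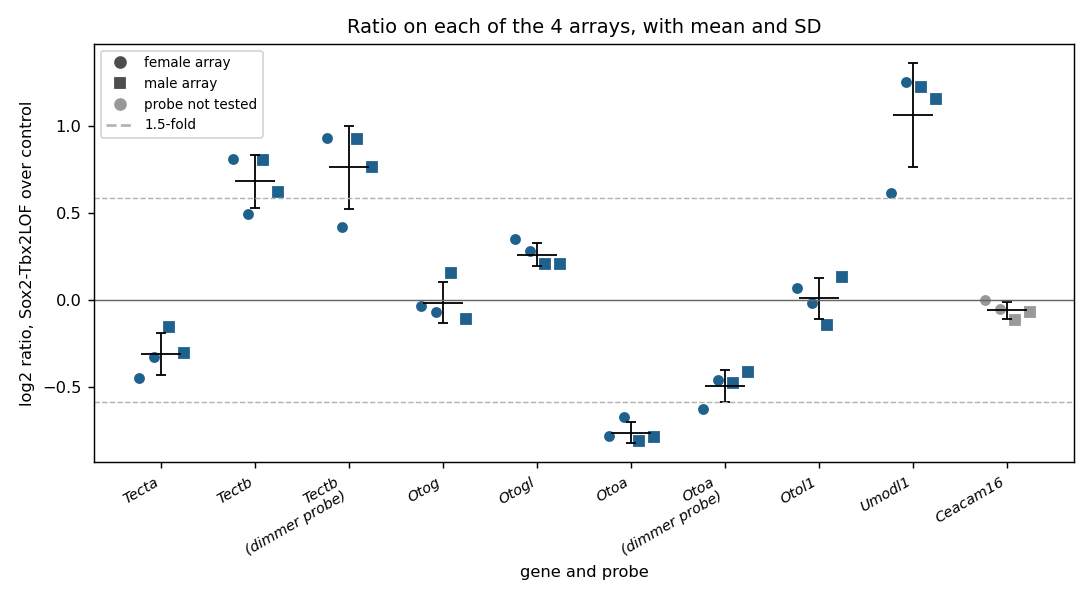
Log2 ratio of *Sox2-Tbx2LOF* over control (y axis) for each of the 10 probes on 4 arrays (circles for the female, squares for the male arrays), with the mean as a bar and the SD as whiskers, dashed lines at a fold of 1.5 and grey for the probe that was not tested. The *Tectb* probes lie above and the *Otoa* probes below 0 on 4 of 4 arrays, and array 1 gave *Umodl1*, whose control pools were not above background, its lowest ratio, 0.62.

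*Umodl1* encodes a protein with a zona pellucida domain. Its probe was well above background in 4 of 4 mutant pools and in 0 of 4 control pools, so it entered the test through the mutant pools alone and had to differ. In Cy5 the raw intensity of the mutant pools was 1.99 (female) and 3.35 (male) times the local background and that of the control pools 1.13 and 1.32 times. In Cy3 the mutant pools were at 5.50 and 5.49 times and the control pools at 1.72 and 1.85 times the background. Every mutant pool was thus above every control pool of its dye, at signals that were low throughout. As normalized log2 levels these were 7.17 and 7.86 against 6.39 and 6.55 in Cy5 and 7.65 and 7.71 against 6.56 and 6.64 in Cy3. *Umodl1* was at least 1.99-fold higher in the mutants, a bound taken against the lowest signal that counted as above background. The fit gave a limma adjusted p of 0.000436, which adds no support because of the way the gene entered the test. The ratios within arrays were 0.62, 1.25, 1.22 and 1.16, a mean of 1.06 ± 0.30 (SD, n = 4), so array 1 stood apart. Without it the mean ratio was 1.21. These ratios are set against control pools at background and have no fixed size. From Agilent's processed signals, which subtract the background, the mean log2 ratio was 3.1, and it was 1.75 from the deposited value table.

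*Ceacam16*, which encodes a later component of the striated sheet, was not well above background in any of the 8 pools and was not tested. Its raw intensity was 1.24 to 1.34 times the background in Cy5 and 1.56 to 1.88 times in Cy3, and a difference between groups was not detectable at this signal.

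**Figure D3:**
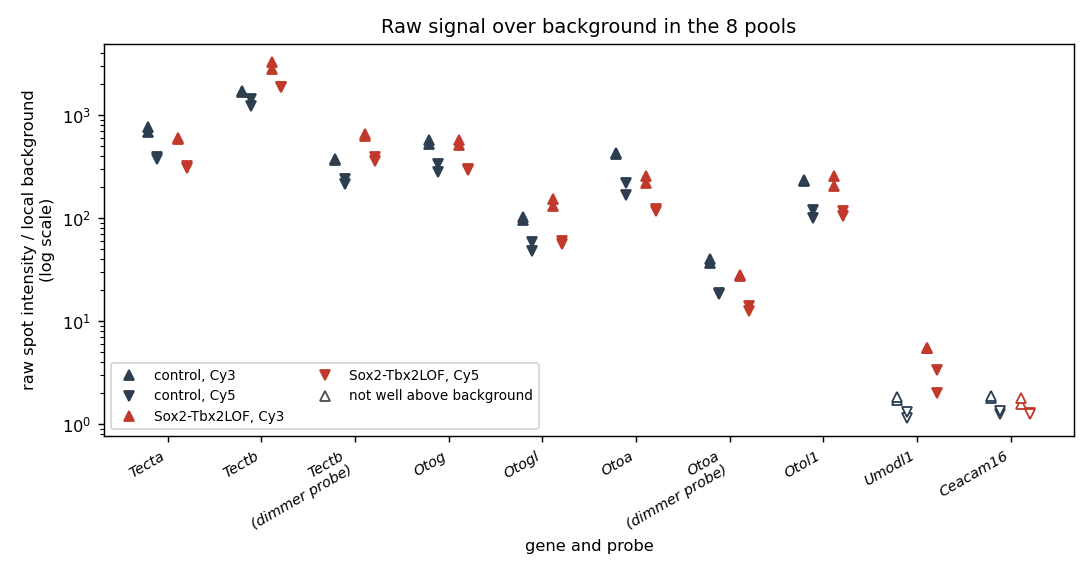
Raw spot intensity divided by the local background (y axis, log scale) for each of the 10 probes in the 8 pools, with triangles pointing up for Cy3 and down for Cy5, dark for control, red for *Sox2-Tbx2LOF* and open symbols where the probe was not well above background. *Umodl1* is open in the 4 control pools alone and *Ceacam16* in all 8 pools, and levels of different probes are not comparable.

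*Otoa* was the one gene of the group that was called lower. Otoancorin sits where the acellular membranes attach to the surface of non-sensory cells. In Cy5 its brighter probe had log2 levels of 12.86 (female) and 12.87 (male) in the mutant and 13.58 and 13.75 in the control pools. In Cy3 the levels were 12.91 and 12.97 in the mutant and 13.65 and 13.68 in the control pools. The groups were far apart in both dyes. Within arrays the log2 ratios were -0.78, -0.67, -0.81 and -0.78, a mean of -0.76 ± 0.060 (SD, n = 4), or a 1.70-fold lower level (limma adjusted p = 6.50e-05). Among the 7 tested genes this ratio had the smallest SD over arrays.

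The dimmer *Otoa* probe fell too, but by less. Its log2 levels were 9.75 and 9.86 in the mutant and 10.45 and 10.28 in the control pools in Cy5, and 9.995 and 9.87 against 10.37 and 10.33 in Cy3. Its ratios were -0.63, -0.46, -0.47 and -0.41, a mean of -0.49 ± 0.093 (SD, n = 4, limma adjusted p = 0.000578 over all tested probes), which is 1.41-fold and below the fold required for a call. The brighter probe's ratio was lower than that of the dimmer probe on 4 of 4 arrays, by -0.15, -0.22, -0.33 and -0.37 (-0.27 ± 0.10 SD, n = 4). This difference between the probes was not tested, and the call of *Otoa* thus rests on the probe for the predicted transcript.

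*Otog* did not pass the test. In Cy5 its mutant pools, at 14.19 and 14.28, lay below its control pools, at 14.35 and 14.34, whereas in Cy3 its mutant pools, at 14.28 and 14.23, lay above its control pools, at 14.22 and 14.13. The groups were apart in both dyes but in opposite directions. The ratios within arrays were -0.033, -0.071, 0.15 and -0.11, a mean of -0.015 ± 0.12 (SD, n = 4, limma adjusted p = 0.887). The 95% interval of the log2 ratio ran from -0.11 to 0.081.

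*Otogl*, the paralogue of *Otog*, was higher on 4 of 4 arrays. The ratios were 0.35, 0.28, 0.20 and 0.21, a mean of 0.26 ± 0.068 (SD, n = 4), or 1.20-fold (95% interval 1.12 to 1.28, limma adjusted p = 0.0106). Between arrays the picture was less clear. In Cy3 the mutant pools were at 12.13 and 12.11 and the control pools at 11.50 and 11.66, whereas in Cy5 the mutant pools were at 11.85 and 11.87 and the control pools at 11.85 and 11.90 and overlapped. In the fit of 8 separate pools without pairing by array, adjusted p was 0.557, and without array 1 it was 0.0742 in the fit of ratios. The log2 ratio of *Otogl* minus that of *Otog* was 0.38, 0.35, 0.052 and 0.32 (0.28 ± 0.15 SD, n = 4), so the pair parted on each array but little on array 3.

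*Otol1* did not pass the test either. Its mutant pools were at 12.91 and 12.80 in Cy5 and at 12.91 and 13.06 in Cy3, and its control pools at 12.92 and 12.93 in Cy5 and at 12.84 and 12.94 in Cy3. The groups overlapped in Cy3. The ratios within arrays were 0.067, -0.018, -0.14 and 0.13, with a mean of 0.0097 ± 0.12 (SD, n = 4, limma adjusted p = 0.936) and a 95% interval from -0.099 to 0.12.

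No difference between female and male arrays passed the test for these genes. The mean log2 ratio of *Tectb* was 0.65 on the female and 0.71 on the male arrays, that of *Otoa* was -0.73 and -0.80, and that of *Tecta* was -0.39 and -0.23. In limma's test of an interaction of genotype and sex, 0 of the 6 genes above background in both groups passed, with adjusted p = 1.00 for each and 0 of 6 at an unadjusted p below 0.05. Over all tested genes 0% passed, and 558 had an unadjusted p below 0.05. With 2 arrays per sex only large differences could pass.

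The genes whose levels followed the called genes most closely over the 8 pools were found by the root mean square difference of log2 levels, after centring each gene within each dye. For *Tectb* these were *Slc36a2* (difference 0.050), *Acad9* (0.066) and *Gpx6* (0.082), with mean log2 ratios of 0.70, 0.67 and 0.63. For *Otoa* they were *Nrcam* (0.052), *Pkd2l1* (0.062) and *Me1* (0.076), with ratios of -0.78, -0.69 and -0.68. For *Umodl1* no such genes are given, since its control levels are at background and the distances have no fixed size. The measure contains the genotype difference itself and describes likeness in these 8 pools only.

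Genes of related function or structure were read from 7 lists with 49 genes, of which 34 were tested. Over these lists 0 of 34 genes were called in limma's test, 5 had an unadjusted p below 0.05 (20.2% of all tested genes did) and 2 an adjusted p below 0.05. Both of these were higher in the mutant, as were 2.26% of all tested genes by the same rule. The median log2 ratio of the 34 genes was 0.028. *Ceacam2* (0.40 ± 0.41 SD, n = 4, limma adjusted p = 0.136) was called higher in the fit without array 2, and in no other fit run. The 2 genes, named after their values were seen, are *Col9a1*, a chain of the type IX collagen of the tectorial membrane (0.22 ± 0.13 SD, n = 4, limma adjusted p = 0.0122), and *Vwf*, a blood glycoprotein with von Willebrand D domains made by endothelium (0.37 ± 0.19 SD, n = 4, limma adjusted p = 0.0042). Of the 8 collagen genes of the tectorial membrane 8 were tested, and their log2 ratios lay between -0.072 and 0.22. Of the otoconia genes 5 of 6 were tested, between -0.13 and 0.067, and *Oc90*, a main protein of otoconia, was at 0.034 ± 0.027 (SD, n = 4). Of the genes with zona pellucida domains 5 of 11 were tested, between 0.025 and 0.17. Of those with von Willebrand D domains 8 of 9 were tested, between -0.030 and 0.37. Of the Ceacam genes 3 of 5 were tested, between -0.042 and 0.40, and of the genes akin to otolin 5 of 7, between -0.052 and 0.036. *Strc*, *Msln* and *Mslnl*, the relatives of *Otoa*, were not above background in enough pools to be tested.

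**Figure D4:**
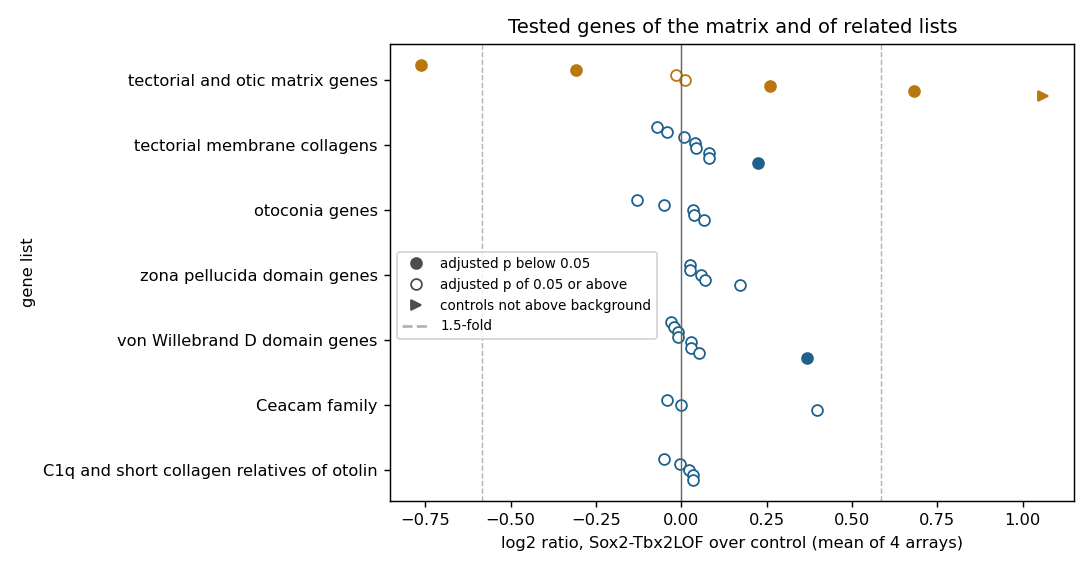
Mean log2 ratio of *Sox2-Tbx2LOF* over control on 4 arrays (x axis) for the 7 tested matrix genes (top row) and for the 34 tested genes of related lists (rows below), filled where the adjusted p was below 0.05, with dashed lines at a fold of 1.5 and a triangle for *Umodl1*, whose control pools were not above background. The 6 matrix genes above background in both groups lie between -0.76 and 0.68 and the related genes between -0.13 and 0.40.

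Markers of compartments and of other cells moved between the groups as well, counted here at an adjusted p below 0.05 at any fold, and their part in the results for the matrix genes was not tested. Of the markers of the medial duct and inner compartment 7 of 9 were lower, and their summed signal was 83185 to 87901 in the mutant and 105893 to 107504 in the control pools, with a log2 ratio of the sums within arrays of -0.31 ± 0.042 (SD, n = 4). Of the markers of the lateral duct and outer compartment 4 of 8 were higher and 1 was lower (*Ngfr*, -0.74). Their sums were 194329 to 200366 against 158419 to 173406, with a log2 ratio of the sums of 0.26 ± 0.049. Such sums weigh each gene by the brightness of its probe. Here *Gata3* (log2 ratio 0.34) and *Bmp4* (0.087, which did not pass) had the brightest probes. Of the neuronal markers 7 of 9 tested were lower, with sums of 20801 to 25777 against 24266 to 30541. These ranges overlap, whereas the log2 ratio of the sums within arrays was -0.22 ± 0.046 (SD, n = 4). The methods describe removal of the spiral ganglion. Of the markers of Schwann cell precursors 3 of 6 were lower, among them *Fabp7*, which is also on the medial list, and 1 was higher. Their sums were 127570 to 155514 against 133858 to 155531, with a log2 ratio of the sums of 0.045 ± 0.15. Of the hair cell markers 3 of 8 were higher, with sums of 9291 to 14282 against 7966 to 10774 that overlap. The log2 ratio of the sums within arrays was 0.41 ± 0.17 (SD, n = 4), whereas the median log2 ratio of the 8 genes was 0.10. Those that passed were *Pcp4* (0.65), *Rasd2* (0.60) and *Myo7a* (0.17). *Atoh1* (0.047), *Pou4f3* (0.044), *Gfi1* (-0.089), *Myo6* (0.088) and *Lhx3* (0.12) did not pass. Of the 8 prosensory markers 2 were higher (*Isl1* and *Hey2*) and 2 were lower (*Jag1* and *Lfng*, which are also on the medial list). Of the 8 markers of otic epithelium, all of them measured, 1 was higher (*Gata3*, also on the lateral list), and of the 7 of mesenchyme 1 was higher (*Col1a1*). Of melanocytes, blood, endothelium, macrophages and the roof and vestibular epithelium 25 markers were tested, with log2 ratios between -0.14 and 0.19. Of these 25, 5 had an unadjusted p below 0.05 in limma's test, as did 20.2% of all tested genes, and 0 had an adjusted p below 0.05.

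*Tbx2* encodes a T-box factor, so promoters were searched for the T-box core motif GGTGTGA on either strand, over windows from 250 bases before to 50 bases after a start site in RefSeq on build GRCm38.p6. Windows were listed for 6 of the 8 genes, *Tecta* with 2 of them, and not for *Otogl* and *Ceacam16*. The start site of the *Umodl1* window lies 35 bases inside the first base of the gene in the RefSeq table and that of one *Tecta* window 1743 bases inside, and the other windows are set at the first base of their gene. The motif was in 3.98% of 32851 windows of the same length. Among the matrix genes it was found once, in the window of *Otog*, on the strand of the gene with its first base 17 bases before the start. *Otog* did not pass the test. The windows of *Tectb*, *Otoa* and *Umodl1* are printed because these genes were called, *Umodl1* through its mutant pools alone. These windows do not hold the letters of the motif and so have no capitals.

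*Tectb*, chr19:55180476-55180775, forward strand: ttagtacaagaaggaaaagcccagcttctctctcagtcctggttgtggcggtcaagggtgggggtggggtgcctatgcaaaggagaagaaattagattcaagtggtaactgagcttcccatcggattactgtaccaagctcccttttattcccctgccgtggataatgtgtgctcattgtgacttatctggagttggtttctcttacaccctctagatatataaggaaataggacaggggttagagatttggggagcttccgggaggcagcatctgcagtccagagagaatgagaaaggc
*Otoa*, chr7:121083174-121083473, forward strand: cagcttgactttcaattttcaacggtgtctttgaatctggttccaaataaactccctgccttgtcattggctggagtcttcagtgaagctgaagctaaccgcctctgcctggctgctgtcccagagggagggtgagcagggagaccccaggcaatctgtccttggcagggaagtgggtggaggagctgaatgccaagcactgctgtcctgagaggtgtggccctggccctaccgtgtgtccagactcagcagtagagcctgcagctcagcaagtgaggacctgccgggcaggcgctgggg
*Umodl1*, chr17:30954433-30954732, forward strand: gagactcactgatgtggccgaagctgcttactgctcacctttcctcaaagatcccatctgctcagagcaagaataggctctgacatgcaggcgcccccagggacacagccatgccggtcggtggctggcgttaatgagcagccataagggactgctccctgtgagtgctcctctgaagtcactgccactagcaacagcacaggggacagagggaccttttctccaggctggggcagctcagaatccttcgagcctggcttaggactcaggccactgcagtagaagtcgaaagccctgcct

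These matches describe letters in a window and not binding.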

How the data were processed

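Cochlear ducts were measured in 8 pools on 4 arrays, and groups, sex and dyes came from the labels. The authors deposited the output of Agilent Feature Extraction 10.7.3.1, with unnormalized intensity values (spot mean, median of the local background) and with processed intensity. Per the file headers the log10 ratio is that of Cy5 over Cy3, and it was not used. The deposited series table gives 1 score for each probe and array, which matched a fold change of mutant against control with a sign (r across probes 0.882 to 0.913), and its normalization is not given in the sources used here.

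Background was corrected with normexp (offset 50) in limma 3.58.1 and R 4.3.3, ratios were normalized by loess within arrays without controls and flagged spots, and the remaining spots were averaged by probe. Tested were probes with at least 50% of spots well above background in at least 4 of 8 channel measurements. Each gene was represented by its brightest such probe (21042 genes). Pool levels were also scaled between arrays (Aquantile). The fit had genotype and dye as terms, and genes with an adjusted p below 0.05 and a fold of at least 1.5 were called. Each ratio lies within an array, so its 2 pools are paired by hybridisation. Pools were separate, but p-values measure only a spread between these 4 arrays. It is the spread left after the dye term, moderated over all genes (2 residual and 5.65 prior degrees of freedom). It is therefore not the SD printed beside a p-value. The script was tested on simulated data. For a gene not above background in one group the fold is a lower limit for the means and carries no sampling error. Named were all matrix genes and probes, called genes of related lists and, for each called matrix gene, the 3 nearest genes (not given for *Umodl1*). No related gene was called, and related and marker genes named beyond this rule were chosen after their values were seen. Members and lists were chosen with earlier results of these data known. Alternatives were other background corrections, normalization, filters, probe rules, dye and pairing terms, the value table and leaving out each array. The number of arrays limits the precision. Proteins were not analysed here.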

Additional observations from a re-analysis of the deposited data

Results flagged for a closer look

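The log2 ratio of *Umodl1* on array 1, 0.62, lay far from those on the other 3 arrays relative to their range. The control level of *Otol1* on array 1, 12.84 in Cy3, likewise lay below the other 3 control pools. This comparison mixes the dyes, and the control pool of array 3, also in Cy3, was at 12.94. Such a gap arises by chance in about 1 of 20 groups of 4. The number of groups screened is not given here, so the flags cannot be set against this rate. The causes were not tested.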

How the results depend on the processing

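The calls of *Tectb* and *Otoa* were kept under the 15 alternatives run, with log2 ratios between 0.63 and 0.72 and between -0.79 and -0.63. *Umodl1* entered the test through the mutant pools alone, so its call under 14 alternatives says nothing of its stability (log2 ratio 0.91 to 3.1). It is not tested where a probe must be above background in all 8 measurements, which leaves 1 gene of the group called higher. The adjusted p of *Tecta* lay between 0.000923 and 0.0977 and was below 0.05 in 10 of 15 alternatives, and that of *Otogl* lay between 0.0086 and 0.557 and was below 0.05 in 11 of 15. As a result 3 genes of the group in place of 5, *Umodl1* included, had an adjusted p below 0.05 without the dye term, in separate channels without a replicate block, in the deposited value table and without array 1, and over the 4 fits without 1 array that count lay between 3 and 5. With the array as a replicate block in separate channels the adjusted p of *Tecta* was 0.0059 and that of *Otogl* 0.032, and no call of these genes changed. The log2 ratio of *Otol1* turned to -0.020 under median centring, and over the fits without 1 array it lay between -0.043 and 0.062, that of *Otog* between -0.061 and 0.032. Over all genes, 52 were called higher and 117 lower from the processed signals (28 and 65 in the reported fit), and 99 lower in the value table. Under median centring 19 genes passed the interaction with sex, and 0 of the 6 matrix genes above background in both groups. The causes were not tested. All 4 arrays share 1 slide and 1 scan time, so a slide or scan block could not be fitted. Signal over background limits *Umodl1* and *Ceacam16*.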
